A study of Mus musculus with 4 samples.

Results

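The genes described here are 9 transcription factors that direct myeloid fate, namely Cebpa, Cebpb, Cebpd, Cebpe, Gfi1, Spi1, Irf8, Irf4 and Klf4. They were chosen by name, as the rows of the expression table whose symbol equals one of these, and all 9 were found among 24497 mouse gene entries. The values are TPM, a transcript abundance that is corrected for transcript length and scaled to the same total in every library, so levels of different genes can be compared. The study made stranded mRNA-seq libraries from total RNA of mouse acute myeloid leukemia cells, called NRAS/AE9a leukemic cells, as 4 libraries with 2 in each group. The WT group came from marrow stem cells of wild-type mice, and the Tet2 KO group from Tet2-/- mice, in which exons 8 to 10 of Tet2 are deleted. Cells of both groups carried NRAS and AE9a, had no treatment labelled, and grew in RPMI medium. Its cytokines were SCF at 50 ng/ml, with IL-3 and IL-6 each at 10 ng/ml, and its selection drugs were puromycin (2 µg/ml) and G418 (1 mg/ml). The labels give neither the number of mice or clones behind each group nor their age, sex or strain, so the p-values below speak only of library-to-library spread, part or all of which may be technical.

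As background, the C/EBP proteins are basic leucine zipper factors that bind DNA as dimers. C/EBPα, from Cebpa, starts commitment to granulocytes and monocytes, C/EBPβ acts when granulocyte output must rise quickly, and C/EBPε drives the last steps of neutrophil maturation. PU.1, from Spi1, is an ETS-family factor needed by all myeloid lineages, and it recruits IRF8 or IRF4 to composite DNA sites in monocytes, dendritic cells and macrophages. GFI1 is a zinc finger repressor that favours granulocytes over monocytes, and KLF4 acts in monocytes. AE9a is a truncated form of the AML1-ETO fusion, and AML1-ETO is known for lowering C/EBPα in leukemia with this fusion.

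Tet2 itself was read at 35.05 and 39.95 TPM in WT and at 53.5 and 52.8 TPM in the knockout-labelled libraries. A value over the whole gene covers exons outside the deletion and cannot check the genotype, so every direction below is drawn between labels. Spike-in RNA took 2.98% to 3.41% of each library, 11630 to 11731 genes reached 1 TPM per library, and read depth is unknown. The 5 blast markers looked for (Ptprc, Kit, Cd34, Mpo and Itgam) were at 1 TPM or more in all 4 libraries, and Kit was lowest, at 5.10 to 8.80 TPM. Kit (log2 change 0.59), Cd34 (0.46), Mpo (0.44) and Ptprc (0.17) were higher in the knockout-labelled libraries, and Itgam was lower (-0.39, limma adjusted p from 0.0012 to 0.022). Among 6 megakaryocyte markers, Itga2b rose (0.97), Ppbp (-0.98) and Vwf (-0.66) fell, 2 did not pass and 1 was too low to test. Among 7 erythroid markers, Hbb-bt rose (0.65), 1 did not pass and 5 were too low to test. Lymphoid markers summed to 0.21 to 0.48 TPM per library, with Cd3e, Ms4a1 and Ncr1 listed at 0 in all of them. Markers of mature myeloid cells were present in every library. The 8 neutrophil markers summed to 42209 and 41457 TPM in WT and to 21567 and 21850 TPM in the knockout-labelled libraries. The 9 monocyte and macrophage markers summed to 2978 and 3089 TPM against 2357 and 2333 TPM, but they were mixed, with Ly6c2, Cd68 and Mrc1 lower, Adgre1 higher (0.21, limma adjusted p = 0.0061) and 5 not passing. The 7 dendritic cell markers summed to 58.0 and 61.5 TPM against 22.1 and 23.0 TPM, nearly all of it Itgax (56.8 and 60.0 against 20.9 and 22.2 TPM), and the other 6 were each below 1 TPM in every library. The 8 mast cell and basophil markers summed to 1960 and 2039 TPM against 2108 and 2044 TPM, with 5 lower, 1 higher (Cpa3), 1 not passing and 1 too low to test. The 7 eosinophil markers summed to 47.4 to 52.9 TPM per library, with Prg2 and Ear2 lower (Ear2 at 1.28 and 1.30 TPM in WT and listed at 0 in both knockout-labelled libraries) and Siglecf higher. In bulk RNA, fewer cells of a type and less RNA per cell cannot be told apart, and the part of these marker shifts in the results below was not tested.

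In the knockout-labelled libraries, Cebpe, Cebpd, Gfi1, Spi1 and Irf4 were lower and Irf8 and Cebpa were higher, while Cebpb and Klf4 did not pass the test. All 9 factors passed the filter of at least 1 TPM in at least 2 libraries, and 7 of 9 changed at an adjusted p under 0.05 (limma, Benjamini-Hochberg over 11837 genes). Over all genes tested 30.5% changed, with 18.9% higher and 11.6% lower. Against that background 2 factors rose and 5 fell. The median log2 change of the 9 was -0.26, beside 0.04 for all genes tested. The 2 groups did not overlap for 8 of the 9 factors, 2 with knockout above WT and 6 below, where 68.6% of all genes tested did not overlap (42.2% above and 26.5% below). The falls ranged from 0.26 to 0.59 on the log2 scale and the rises were 0.15 and 0.35, so all 9 changes were smaller than 1 log2 unit. The number of factors called was 4 without WT replicate 1, 6 without WT replicate 2, 4 without knockout replicate 1 and 3 without knockout replicate 2. The share of all genes called was then 19.0%, 24.5%, 8.57% and 8.95%. The factors called in all 4 of these fits were Cebpe, Cebpd and Gfi1. With spike-in scaling, which moved the median of all genes from 0.04 to -0.07, 5 factors fell and none rose. Of all genes tested 17.8% were called with that scaling, 631 higher and 1477 lower. No called factor changed direction.

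**Figure D1:**
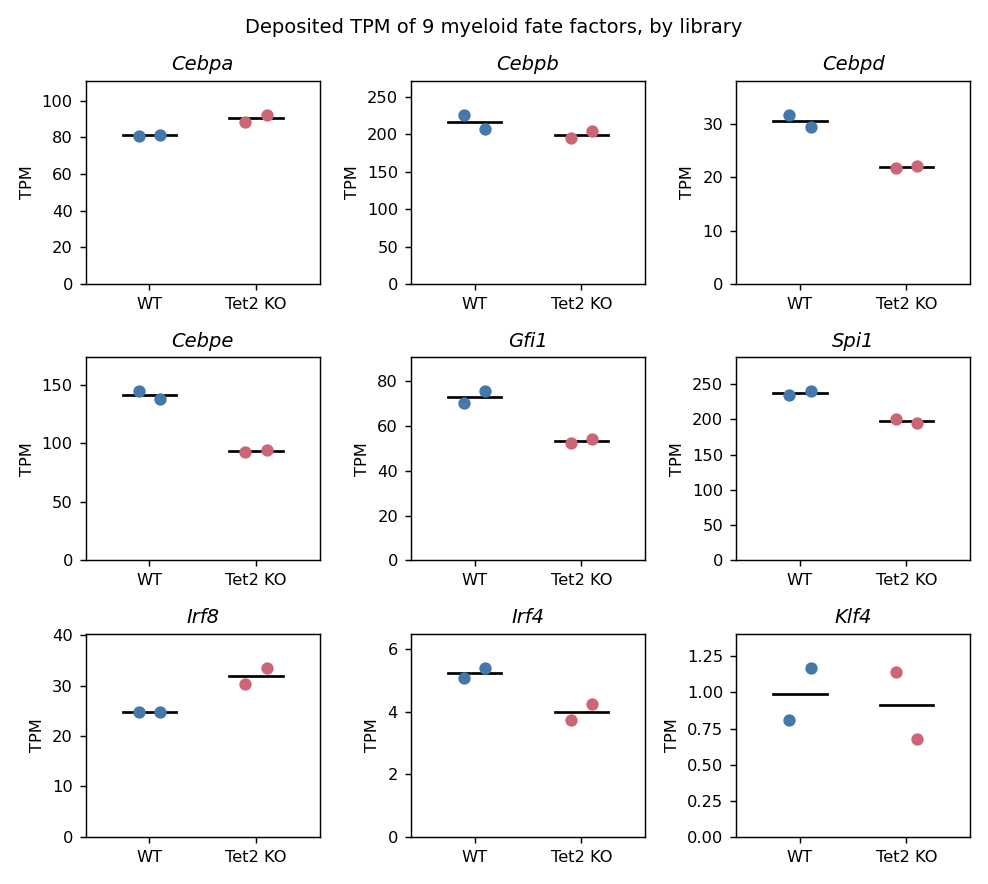
TPM of each factor (y axis, from 0, its own scale per panel) in the 2 WT and 2 Tet2 KO libraries (x axis), with points for libraries and bars for group means. The groups are apart for all factors except Klf4, whose points interleave between 0.68 and 1.17 TPM.

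Cebpe, the factor of late neutrophil maturation, had the largest change of the 9. Its level was 144 and 137 TPM in WT and 92.7 and 94.1 TPM in the knockout-labelled libraries. Both knockout-labelled libraries lay below both WT libraries, with little spread inside either group. The mean fell from 141 ± 4.89 to 93.4 ± 1.01 TPM (SD, n = 2), a ratio of 0.663. On the log2(TPM + 1) scale, which understates changes of low genes, it fell by 0.59 (SE 0.039, 95% interval -0.68 to -0.49, limma adjusted p = 5.9e-04). Only 6.75% of all genes tested had a larger absolute change. Cebpe lies on chromosome 14 from 54710360 to 54712174, minus strand (GRCm38), and its main transcript has 2 exons.

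Gfi1, the repressor that favours granulocytes, fell as well. Its values were 70.0 and 75.3 TPM in WT and 52.3 and 54.3 TPM in the knockout-labelled libraries. The lowest WT library was above the highest knockout-labelled library by more than the distance between replicates. The means were 72.7 ± 3.76 and 53.3 ± 1.37 TPM (SD, n = 2), and the log2 change was -0.44 (SE 0.049, 95% interval -0.56 to -0.32, limma adjusted p = 0.0031). Gfi1 lies on chromosome 5 from 107716657 to 107726036, minus strand, with 6 exons. It overlaps the gene model A430072P03Rik on the opposite strand, which has no entry in the expression table.

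Cebpd, an inducible C/EBP family member, moved with them at a lower level. WT libraries held 31.7 and 29.5 TPM and the knockout-labelled libraries 21.8 and 22.2 TPM, so the groups were again apart. The means were 30.6 ± 1.58 and 22.0 ± 0.27 TPM (SD, n = 2), and the log2 change was -0.46 (SE 0.053, 95% interval -0.59 to -0.33, limma adjusted p = 0.0034). Cebpd is a single-exon gene on chromosome 16 from 15887286 to 15891031, plus strand. It overlaps Spidr, a DNA repair gene, on the opposite strand, and the strand setting of the authors' counting is not given in the sources used here. Spidr was read at 29.6 and 29.9 TPM in WT and at 39.6 TPM in both knockout-labelled libraries, the opposite direction to Cebpd.

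Cebpa, the factor that starts granulocyte and monocyte commitment, went the other way from Cebpe and Cebpd by a small amount. The WT libraries had 81.05 and 81.61 TPM, and the knockout-labelled libraries 88.6 and 92.4 TPM. The groups were apart, yet the mean differed only by a ratio of 1.11 (81.3 ± 0.40 and 90.5 ± 2.67 TPM; SD, n = 2). The log2 change was 0.15 (SE 0.038, 95% interval 0.058 to 0.246, limma adjusted p = 0.033). This call was lost without any single library (limma adjusted p from 0.071 to 0.199) and with spike-in scaling, where the change was 0.04 (limma adjusted p = 0.78). Cebpa is a single-exon gene on chromosome 7 from 35119293 to 35121928, plus strand. It overlaps the gene model Gm45091 on the opposite strand, which has no entry in the expression table.

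Cebpb, the C/EBP of emergency granulopoiesis, was the most abundant of the family in every library. Its values were 226 and 208 TPM in WT and 195 and 204 TPM in the knockout-labelled libraries. The groups were apart by only a few TPM, less than the distance between the WT replicates. The log2 change was -0.12 (SE 0.051, 95% interval -0.24 to 0.01) and did not pass (limma adjusted p = 0.14). Without WT replicate 2 it was called lower (-0.18, limma adjusted p = 0.046). Cebpb, on chromosome 2 from 167688915 to 167690418, plus strand, overlaps Tmem189 on the opposite strand, which was read at 111 and 118 TPM in WT and at 106 and 105 TPM in the knockout-labelled libraries.

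Together the 4 C/EBP genes summed to 483 and 456 TPM in WT and to 398 and 413 TPM in the knockout-labelled libraries. The share of Cebpe in that sum was 29.9% and 30.1% in WT, against 23.3% and 22.8% in the knockout-labelled libraries. The share of Cebpa was 16.8% and 17.9% against 22.2% and 22.4%. The share of Cebpb was 46.8% and 45.5% against 49.0% and 49.4%, and that of Cebpd 6.57% and 6.47% against 5.47% and 5.37%. As parts of 1 sum, the shares do not move independently. The C/EBP transcripts of the knockout-labelled libraries thus held relatively more Cebpa and Cebpb and less Cebpe and Cebpd. This describes shares, which a single scaling factor per library leaves as they are.

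Spi1, which encodes PU.1, was the most abundant of the 9 in WT. In WT it stood at 235 and 239.8 TPM, and in the knockout-labelled libraries at 200.1 and 195.5 TPM. The groups were apart by several times the distance between replicates. The means were 237.5 ± 3.27 and 198 ± 3.23 TPM (SD, n = 2), a ratio of 0.833, and the log2 change was -0.26 (SE 0.032, 95% interval -0.34 to -0.18, limma adjusted p = 0.0041). The direction was the same without knockout replicate 1 or 2, but the call was lost (-0.28, adjusted p = 0.053, and -0.25, adjusted p = 0.063). Spi1 lies on chromosome 2 from 91082390 to 91115756, plus strand, with 5 exons.

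Irf8, the partner of PU.1 that promotes monocytes and dendritic cells and restrains granulocytes, rose. The values were 24.9 and 24.7 TPM in WT against 30.2 and 33.5 TPM in the knockout-labelled libraries. The WT libraries were nearly equal, and the knockout-labelled libraries, both above them, differed more from each other. The means were 24.8 ± 0.11 and 31.9 ± 2.33 TPM (SD, n = 2), a ratio of 1.29, and the log2 change was 0.35 (SE 0.060, 95% interval 0.20 to 0.50, limma adjusted p = 0.011). The call was lost without WT replicate 1 (0.35, limma adjusted p = 0.053), without knockout replicate 2 (0.28, limma adjusted p = 0.071) and with spike-in scaling (0.24, limma adjusted p = 0.10). Irf8 lies on chromosome 8 from 120736358 to 120756694, plus strand, with 9 exons. The annotation has another gene model, Gm20388, over it on the same strand, which has no entry in the expression table.

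Irf4, the related factor that takes the place of IRF8 in alternatively activated macrophages and some dendritic cells, was low and fell. Its level was 5.06 and 5.40 TPM in WT and 3.74 and 4.23 TPM in the knockout-labelled libraries. The groups were apart by less than 1 TPM. The log2 change was -0.32 (SE 0.092, 95% interval -0.55 to -0.09), close to the threshold (limma adjusted p = 0.049), and -0.19 with a pseudocount of 5. The call was lost without any single library, with limma adjusted p from 0.0997 to 0.202, while the direction was the same each time. Irf4 lies on chromosome 13 from 30749226 to 30766976, plus strand, with 9 exons.

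Klf4, the monocyte factor, was barely detected. It was read at 0.81 and 1.17 TPM in WT and at 1.14 and 0.68 TPM in the knockout-labelled libraries, and it passed the filter through a single library of each group. The groups overlapped and the log2 change was -0.06 (SE 0.188, 95% interval -0.53 to 0.41, limma adjusted p = 0.83), a wide interval that includes every change of the other factors except that of Cebpe. Klf4 lies on chromosome 4 from 55527143 to 55532466, minus strand, with 5 exons.

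**Figure D2:**
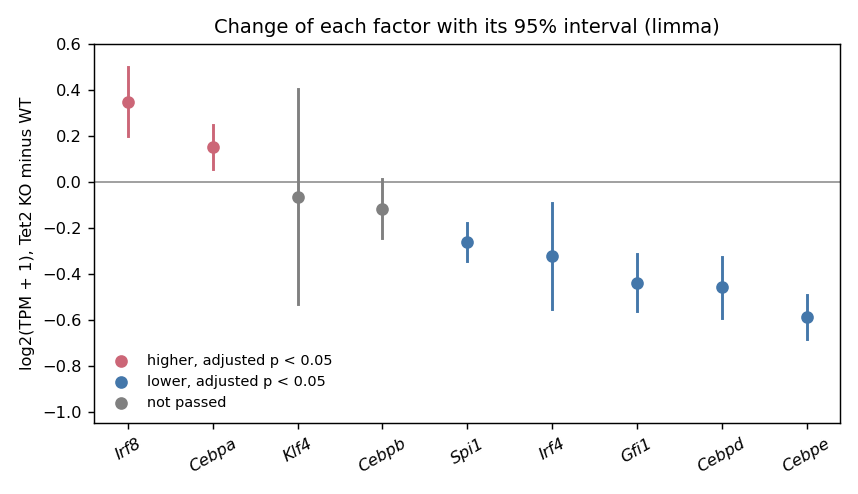
Log2(TPM + 1) of Tet2 KO minus WT (y axis) for each factor (x axis, in order of change), with points for the limma estimate and bars for its 95% interval. Irf8 and Cebpa lie above 0, Spi1, Irf4, Gfi1, Cebpd and Cebpe lie below it, and the intervals of Klf4 and Cebpb include 0.

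The order of levels was close to the same in both groups. In WT it ran Spi1, Cebpb, Cebpe, Cebpa, Gfi1, Cebpd, Irf8, Irf4 and Klf4 by mean TPM, and no neighbouring pair overlapped over the 2 libraries. In the knockout-labelled libraries Cebpb and Spi1 were at the top and overlapped (199.7 and 198 TPM), so their order is not resolved. Cebpe and Cebpa, 141 and 81.3 TPM in WT, were next to each other at 93.4 and 90.5 TPM in the knockout-labelled libraries. Irf8 and Cebpd exchanged places, with Irf8 at 24.8 and Cebpd at 30.6 TPM in WT and 31.9 and 22.0 TPM in the knockout-labelled libraries. The 9 factors summed to 819 and 803 TPM in WT and to 686 and 701 TPM in the knockout-labelled libraries.

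Ratios within a library compare pairs of factors and do not move with a single scaling factor for that library. With 2 libraries a group, the smallest p an exact permutation test (two-sided) can give is 0.333, and these ratios are given without a test. The log2 ratio of Gfi1 over Irf8 was 1.49 and 1.61 in WT, against 0.79 and 0.69 in the knockout-labelled libraries, a shift of -0.81 of the group means. Gfi1 therefore remained the more abundant of the pair in all 4 libraries, by a smaller margin in the knockout-labelled libraries. The log2 ratio of Irf4 over Irf8 was -2.30 and -2.19 in WT, against -3.02 and -2.99 in the knockout-labelled libraries, a shift of -0.76. The log2 ratio of Cebpa over Spi1 was -1.54 and -1.56 against -1.18 and -1.08, a shift of 0.42. Cebpa over Cebpb moved least, from -1.48 and -1.35 to -1.14 in both knockout-labelled libraries, a shift of 0.27. The groups did not overlap for any of the 4 ratios. This follows from the levels given above, as each pair joins a factor above WT to one below WT, and adds no further result.

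**Figure D3:**
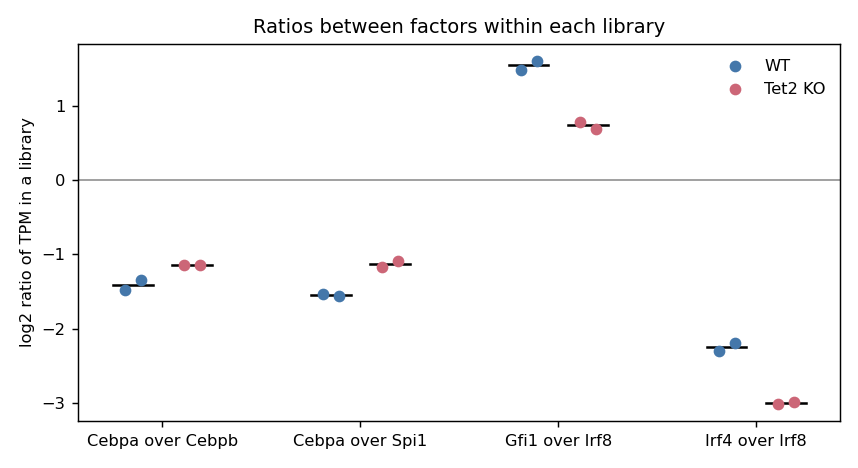
Log2 ratio of the TPM of 2 factors within each library (y axis) for 4 pairs (x axis), with blue points for WT, red points for Tet2 KO and bars for group means. Gfi1 over Irf8 is the only ratio above 0, and it moved from 1.55 to 0.74 on average.

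Promoter entries in RefSeq (GRCm38.p6) were matched for 6 of the 9 factors, and Cebpd, Cebpe and Spi1 were not matched. The 250 bases before the RefSeq start site were searched on both strands for 5 motifs shown in capitals below. These were TTNCNNAA for C/EBP, GAGGAA for ETS factors such as PU.1, a pair of GAAA separated by any 2 bases for IRF, AAATCA for GFI1 and TGTGGT for RUNX, the DNA-binding part of AML1-ETO. Gfi1 and Irf8 each have a second entry at a start site further inside the gene, and unless stated the entry at the outermost RefSeq start is described. The entries of Cebpa, Cebpb and Klf4 held none of the motifs. The promoter of Irf8 held 1 GFI1 match, 175 bases before the start site (chr8:120736108-120736357, plus strand). It is shown because Irf8 rose most of the factors and is a known target of GFI1 repression, a link that was not tested here. The promoter of Irf4, which fell, held 1 ETS match, 19 bases before the start site (chr13:30748983-30749232, plus strand). The promoter of Gfi1 held 1 C/EBP match, shown with the bases around it (chr5:107725930-107725959, minus strand). It lies before the RefSeq start site at 107725805 but inside the gene as GENCODE draws it, whose outermost transcript starts at 107726036. The second entry of Gfi1 held no match, and that of Irf8 held 1 GFI1 match.
Irf8: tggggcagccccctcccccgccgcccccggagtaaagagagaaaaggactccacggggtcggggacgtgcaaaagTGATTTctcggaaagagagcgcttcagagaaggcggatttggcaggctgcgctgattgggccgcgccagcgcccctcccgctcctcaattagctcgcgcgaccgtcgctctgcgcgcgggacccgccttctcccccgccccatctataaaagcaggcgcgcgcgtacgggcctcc
Irf4: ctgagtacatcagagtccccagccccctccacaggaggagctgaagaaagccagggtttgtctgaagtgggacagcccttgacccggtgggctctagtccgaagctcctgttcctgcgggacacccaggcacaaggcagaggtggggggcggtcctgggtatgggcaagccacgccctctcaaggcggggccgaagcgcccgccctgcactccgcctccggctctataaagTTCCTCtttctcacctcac
Gfi1: cgaaggtaggtTTGCTGAActgctgtgcct
A match is a description of letters and not of binding. Of 32851 promoter windows of the same length, 12.4% held the GFI1 motif, 23.2% the ETS motif, 36.9% the C/EBP motif, 14.1% the RUNX motif and 2.98% the IRF motif. CpG sites, the bases whose methylation Tet2 acts on, numbered 41 before Cebpb, 32 before Klf4, 29 before Irf8, 22 before Cebpa, 13 before Gfi1 and 11 before Irf4, where the median window held 6. The second entries held 9 sites for Gfi1 and 8 for Irf8, so no order between rising and falling factors holds over all entries. Methylation was not measured in these libraries.

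Relatives and partners of the 9 factors are given next by family. The share called was 33.3% of the other IRF genes, 33.3% of the other ETS genes, 27.3% of the other KLF genes and 36.4% of partners and regulators, all near the 30.5% of all genes tested, so these counts are no result about those lists. It was 83.3% of the 6 C/EBP relatives and partners and 53.8% of the other fate factors. Among 6 tested C/EBP relatives and dimer partners, 3 rose, 2 fell and 1 did not pass (median 0.05, or -0.07 with spike-in scaling). Cebpg, a C/EBP without an activation domain of its own, rose from 27.2 and 29.4 to 38.1 and 36.8 TPM (0.39, limma adjusted p = 0.0056), and Ddit3, a stress-induced C/EBP, from 36.7 and 32.0 to 50.5 and 50.1 TPM (0.54, limma adjusted p = 0.0047). Batf3, a partner of IRF8 and IRF4 in dendritic cells, fell from 5.46 and 6.46 to 1.25 and 1.86 TPM (-1.45, limma adjusted p = 0.0025, and -0.74 with a pseudocount of 5). Without knockout replicate 1 or 2 none of the relatives rose and 1 fell, with Cebpg at 0.065 and 0.052 and Ddit3 at 0.058 and 0.055 (limma adjusted p). Without WT replicate 2 also 1 fell. Of 6 other IRF genes tested, 2 rose and 0 fell (median 0.09, or -0.02 with spike-in scaling), and these were Irf7 (0.65, limma adjusted p = 0.0011) and Irf9 (0.44, limma adjusted p = 0.0028), which carry interferon signals. The other 4 did not pass, among them Irf1 (0.14, limma adjusted p = 0.21) and Irf3 (-0.10, limma adjusted p = 0.19). A link of Irf8 or Irf4 to these genes was not tested.

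Of 12 other ETS genes tested, 4 rose, 0 fell and 8 did not pass (median 0.14, or 0.03 with spike-in scaling). Spi1, itself an ETS gene, fell. Elf1 had a log2 change of 0.34 and Elk4 of 0.37 (limma adjusted p = 0.0083 and 0.0045). With spike-in scaling none of the ETS genes rose, and without knockout replicate 1 or 2 the number was 1 and 0, while Spi1 fell by 0.38 with spike-in scaling. Of 11 other KLF genes tested, 2 rose, 1 fell and 8 did not pass (median 0.12), and none rose with spike-in scaling. Klf5 fell from 8.40 and 9.91 to 4.67 and 5.48 TPM (-0.74, or -0.49 with a pseudocount of 5; limma adjusted p = 0.0070, or 0.061 without knockout replicate 1), and without WT replicate 1 or either knockout library no KLF gene rose.

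Of 26 other factors of myeloid and progenitor fate, 9 rose, 5 fell and 12 did not pass (median 0.08, or -0.03 with spike-in scaling, where 4 rose). Tal1 (0.51, limma adjusted p = 0.0018) and Id1 (0.36, limma adjusted p = 0.0024, or 0.092 with spike-in scaling), a progenitor factor and an inhibitor of helix-loop-helix proteins, rose. Egr2, a monocyte and macrophage factor that opposes GFI1, fell from 25.7 and 26.6 to 7.99 and 8.96 TPM (-1.52, limma adjusted p = 2.2e-04), and Rxra, a nuclear receptor, fell too (-0.67, limma adjusted p = 0.0025). The risers numbered 5, 3 and 3 without WT replicate 1, knockout replicate 1 and knockout replicate 2, and the fallers 3 without knockout replicate 1. Runx1, part of the fusion, had a log2 change of 0.01 (limma adjusted p = 0.89), named here after its value was seen. Among 11 partners and protein regulators, 2 rose, 2 fell and 7 did not pass (median 0.08, or -0.04 with spike-in scaling, where none rose). Trib1, which targets C/EBPα for degradation, fell from 8.72 and 9.49 to 5.40 and 5.75 TPM (-0.62, limma adjusted p = 0.0042). Kdm1a and Rcor1, of the corepressor complex that GFI1 recruits, had log2 changes of 0.21 each (limma adjusted p = 0.018 and 0.030). Without either knockout library no regulator rose and 1 fell, without WT replicate 1 also 1 fell, and without WT replicate 2 there was 1 in each direction. Both the Kdm1a and Rcor1 calls were lost without WT replicate 2 (limma adjusted p = 0.053 and 0.091).

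**Figure D4:**
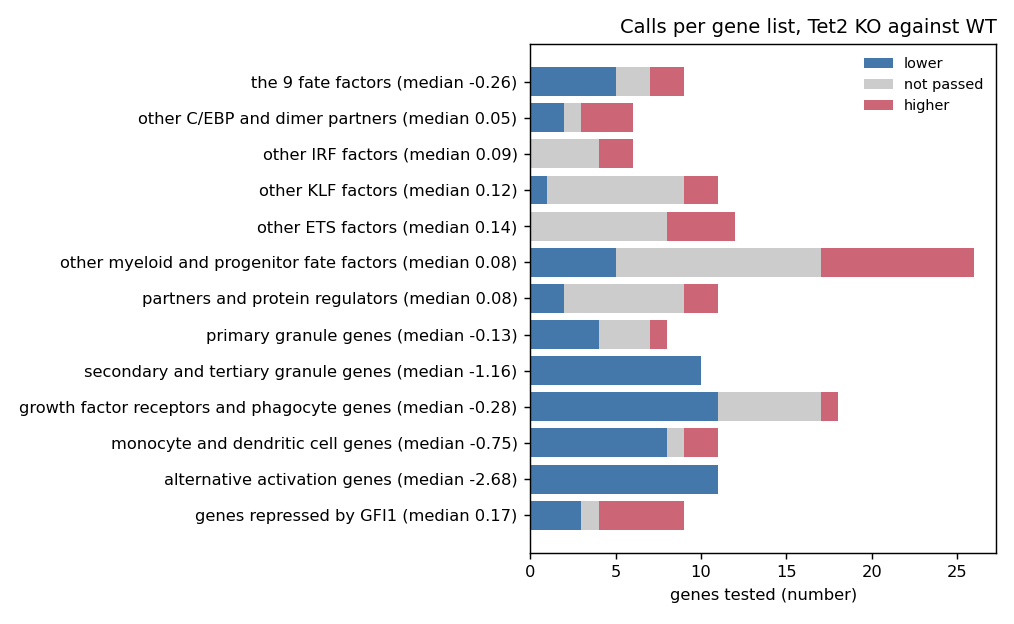
Number of genes tested (x axis) in each list (y axis, with its median log2 change), divided into lower (blue), not passed (grey) and higher (red) in Tet2 KO at a limma adjusted p under 0.05. All 10 secondary and tertiary granule genes and all 11 alternative activation genes are lower.

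Genes linked to these factors, as known targets or as markers of cells that need them, are given next. They were mostly lower in some lists and mixed in others. The lists were chosen with earlier results of these data known, so their directions are not independent evidence. All 10 secondary and tertiary granule genes, which neutrophils need C/EBPε to make, fell (median -1.16, beside 0.04 for all genes tested), and 8 did without either knockout library in turn. Cd177 fell from 215 and 214 to 42.3 and 42.6 TPM (-2.31), and Ngp (-1.68), Camp (-2.15) and Ltf (-0.92) fell as well (limma adjusted p from 6.8e-06 to 1.2e-04). These 4 have the smallest p of the list. Mmp8 (-0.43) and Hp (-0.27), named after their values were seen, fell by less than the 0.59 of Cebpe. The neutrophil marker sum, which shares Camp, Ltf and Mmp8 with this list, moved with them.

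Primary granule genes, made earlier under C/EBPα, PU.1 and MYB, were mixed, with 4 of 8 lower, 1 higher and 3 not passing (median -0.13). Elane, neutrophil elastase, fell from 273 and 276 to 109 and 117 TPM (-1.28, limma adjusted p = 1.2e-04), while Mpo, myeloperoxidase, rose from 731 and 758 to 990 and 1037 TPM (0.44, limma adjusted p = 0.0015). Without knockout replicate 1 or 2 there were 2 lower primary granule genes. Of 18 growth factor receptor and phagocyte genes, classical targets of PU.1 and C/EBP factors, 11 fell, 1 rose and 6 did not pass (median -0.28), beside the mixed monocyte and macrophage markers, a list that shares Csf1r, Cd14, Cd68 and Fcgr1 with this list. Csf2ra, a GM-CSF receptor chain, fell from 165 and 176 to 58.9 and 63.1 TPM (-1.47, limma adjusted p = 1.2e-04), and Itgb2 and Itgam, the chains of the integrin Mac-1, had log2 changes of -0.62 and -0.39 (limma adjusted p = 2.4e-04 and 0.0023). The riser was Cybb, named after its value was seen, at 38.5 and 43.6 against 54.6 and 51.7 TPM (limma adjusted p = 0.014), and leaving out either knockout library ended that call while leaving out WT replicate 1 gave 2 risers.

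Of 11 tested monocyte and dendritic cell genes that need IRF8, IRF4 or KLF4, or mark the cells that do, 8 fell, 2 rose and 1 did not pass (median -0.75), while Irf8 rose. The H2 genes and Cd74 share an antigen presentation pathway, so the 8 are not separate observations. H2-Eb1 (-2.18), H2-Aa (-1.85), Itgax (-1.40) and Cd74 (-0.96) were lower (limma adjusted p from 7.5e-05 to 1.7e-04), and Itgax also makes up nearly all of the dendritic cell marker sum. The 2 risers, Ccr2 (0.94) and Cx3cr1 (1.34), chemokine receptors of monocytes, were named after their values were seen (limma adjusted p = 3.6e-04 and 9.6e-04). All 11 alternative activation genes, several of which use C/EBPβ, IRF4 or KLF4 downstream of IL-4, fell (median -2.68), and 1 of them, Mrc1, is among the macrophage markers. Some mast cell, basophil and eosinophil markers fell beside them, namely Tpsb2 (-1.63), Cma1 (-1.50), Hdc (-1.09), Ms4a2 (-1.08), Prss34 (-0.95) and Prg2 (-2.80), while Cpa3 (0.29) and Siglecf (0.45) rose (limma adjusted p from 8.9e-05 to 0.0070). The part of these cell types in the fall was not tested. Arg1 fell from 402 and 416 to 14.3 and 13.7 TPM (-4.78) and Retnla from 194 and 189.9 to 5.38 and 5.23 TPM (-4.93, limma adjusted p = 8.2e-07 for each), next to changes of -0.12 for Cebpb and -0.32 for Irf4.

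Of 9 tested genes known to be repressed by GFI1, 5 rose, 3 fell and 1 did not pass (median 0.17), and with spike-in scaling 2 rose. This list shares Gfi1b, Id2, Egr1 and Egr2 with the other fate factors, Egr2 with the alternative activation genes and Csf1r with the receptor genes. Gfi1b, the paralogue of Gfi1, rose from 10.4 and 8.98 to 15.3 and 16.5 TPM (0.66, limma adjusted p = 0.0046, or 0.054 without knockout replicate 2). Csf1, Egr2 and Nab2, a corepressor that works with EGR2, were lower, and Gfi1 was lower too. The log2 changes of Csf1, Egr2 and Nab2 were -0.69, -1.52 and -0.34 (limma adjusted p from 2.2e-04 to 0.0051). The Nab2 call was lost without knockout replicate 2, where its change was -0.30. A link of Gfi1 to the genes of this list was not tested. The number of risers was 3 without WT replicate 1, 1 without knockout replicate 1 and 1 without knockout replicate 2.

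Nearest profiles were sought for Cebpe, Cebpd and Gfi1, the factors with the largest changes, by Euclidean distance between log2(TPM + 1) values centred over the 4 libraries. The nearest to Cebpe were Fdps (distance 0.007), Mief2 (0.031) and Mad1l1 (0.032). Those nearest to Cebpd were Dhrs7 (0.020), Dnajb11 (0.021) and Tanc2 (0.032, its change of -0.47 being -0.76 and -0.18 with a pseudocount of 0.1 and 5), and those nearest to Gfi1 were Lpcat4 (0.029), Tmx4 (0.035) and Ifngr1 (0.039). With 4 libraries in 2 groups, many genes can share such a profile.

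**Figure D5:**
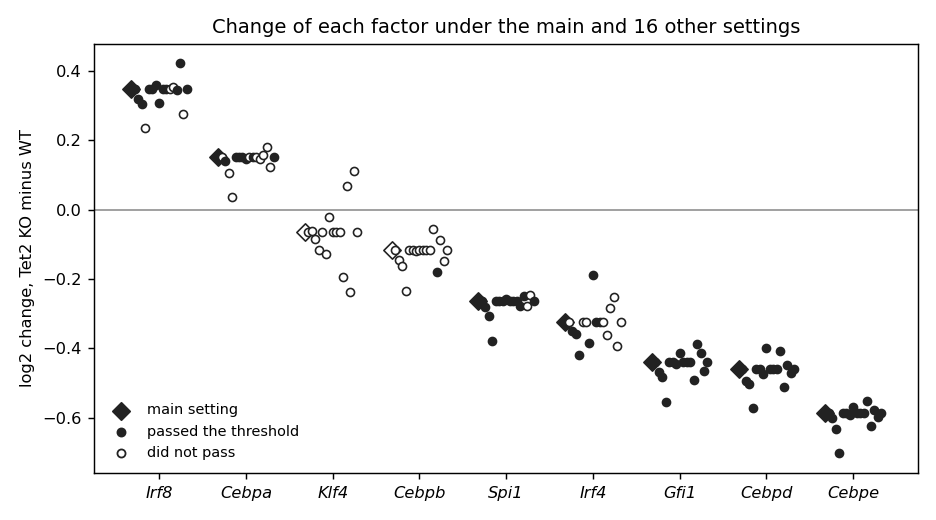
Log2 change of Tet2 KO minus WT (y axis) for each factor (x axis) under the setting reported (diamonds) and 16 others (circles; 15 for Klf4, which a filter at 5 TPM leaves out), with filled symbols where the adjusted p passed the threshold. Cebpe, Cebpd and Gfi1 are filled throughout, and only Klf4 has values on both sides of 0.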

How the data were processed

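The authors deposited 1 table of TPM for the 4 libraries, which per the submitters' processing notes was made with STAR and RSEM on mm10. Versions, annotation and strand setting are not given in the sources used here, and libraries were made with a stranded mRNA kit per the labels' protocols. Each column sums to 1000000 TPM, shared by mouse genes and 92 spike-in entries. TPM keep no depth, so no counting interval is given.

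The spike-ins were left out, genes reaching 1 TPM in 2 or more libraries (11837) entered the fit, and log2(TPM + 1), with a pseudocount of 1, was compared with limma 3.58.1 (R 4.3.3) with a variance trend and no replicate block, with 2 residual and 3.51 prior degrees of freedom. P-values are two-sided and Benjamini-Hochberg adjusted over all kept genes, with calls under 0.05. The fit was tested on simulated data with known changes, where the share of false calls was above the adjusted p threshold in each run. Far fewer genes were changed there than were called here, so the size of any excess in these data is unknown. Calls are to be read as less sure than stated, those close to the threshold above all. The 9 factors and the 12 gene lists were chosen with earlier results of these data known. Named genes are the 9 factors, Tet2, those among up to 4 genes per list with the smallest p, and the 3 nearest profiles of the 3 most changed factors. Spidr, Tmem189, the other gene models that overlap a factor and marker genes are named for their place or role.

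Alternatives were a replicate block, quantile, trimmed-mean and spike-in scaling, a filter at 5 TPM or none, a pseudocount of 0.1 or 5, no variance trend, robust variances, an adjusted p under 0.01, and leaving out each library. A crossed replicate block was chosen after seeing the data. Loci and exons came from GENCODE mouse release 21 (GRCm38, the assembly of mm10), and promoters from RefSeq (GRCm38.p6).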

Additional observations from a re-analysis of the deposited data

How the results depend on the processing

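Cebpe, Cebpd and Gfi1 were called under all 16 alternatives, Spi1 was lost only without a knockout library, and no called factor changed direction. Klf4 ranged from -0.24 to 0.11 when 1 library was left out, turning to 0.07 without WT replicate 2 and to 0.11 without knockout replicate 2, and did not pass. Of the 9 factors, called numbers were 4 (0 higher) with an adjusted p under 0.01, and 1 was higher with trimmed-mean scaling or no variance trend and 0 with spike-in scaling. Over all genes 3606 were called (30.5%, with 2237 higher and 1369 lower). The numbers were 2108 (17.8%, 631 higher) with spike-in scaling and 1505 (12.7%, 839 higher, 666 lower) with an adjusted p under 0.01. The higher share of calls was 62.0%, against 54.2%, 48.6% and 29.9% with quantile, trimmed-mean and spike-in scaling, the last moving the median of all genes from 0.04 to -0.07. Of 133 genes in the lists 28 were called higher and 55 lower, and 13 and 17 were higher with spike-in scaling and with an adjusted p under 0.01. Irf4 over Irf8 shifted by -0.67 with a pseudocount of 1 in the ratio.

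Leaving out 1 library gave 3 to 6 factors called (0 to 1 higher, 3 to 5 lower), 1015 to 2905 genes (500 to 1910 higher, 515 to 995 lower) and 50 to 80 list genes (9 to 29 higher). A lone library is assumed to vary like the other group. Of 384 list counts under alternatives, 60 were beyond 1.5 times the reported count. Of 53 called genes named from lists and nearest profiles, 19 lost the call under at least 1 alternative and 0 changed direction.

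Same-numbered libraries deviated from their group means with a correlation of -0.114 across genes. With 2 libraries per group this cannot show whether the numbers pair the libraries, and the labels do not say. With a replicate block 5 factors were called (1 higher, 4 lower), with Cebpa and Irf4 lost (adjusted p = 0.053 and 0.058), and 3071 genes in all. With the crossed block 6 factors and 3463 genes were called. Unknown depth limits Klf4 and Irf4 most.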
